A study of Mus musculus with 20 samples.

Results

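The iron transport and storage genes examined here were 8 genes chosen by symbol, with the result for Slc40a1 under rosiglitazone on these arrays already known. They are Slc40a1, Tfrc, Slc11a2, Fth1, Ftl1, Trf, Hmox1 and Cp, out of 18193 genes with a probe set of their own. Messenger RNA of mouse aorta was measured on 20 Affymetrix arrays, each hybridized with RNA pooled from 8 aortas. The rosiglitazone experiment used adult C57BL/6J mice. It had 3 arrays of mice on control chow, labelled as the vehicle, and 11 arrays of mice fed rosiglitazone, an agonist of the nuclear receptor PPAR gamma, in the chow. Rosiglitazone was given at 3 mg/kg/day for 2 days (3 arrays) or 14 days (3 arrays), or at 10 mg/kg/day for 2 days (3 arrays) or 14 days (2 arrays). The second experiment had 3 arrays of adult mice with the dominant-negative P465L form of PPAR gamma knocked into the endogenous locus, and 3 arrays of their wild-type littermates, all on standard chow. The labels do not give the sex, exact age or P465L zygosity, nor the strain of the second colony. Because whole aortas were pooled, fewer cells of a type and less RNA per cell cannot be told apart.

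Cells take up iron bound to transferrin (Trf) through the transferrin receptor (Tfrc), and the divalent metal transporter Slc11a2 moves it from the endosome into the cytosol. Spare iron is stored in ferritin, a shell of heavy (Fth1) and light (Ftl1) chains, and leaves the cell through Slc40a1 (ferroportin), the known vertebrate iron exporter, with the help of copper ferroxidases such as ceruloplasmin (Cp). Haem oxygenase 1 (Hmox1) releases iron from haem. Iron regulatory proteins adjust several of these genes after transcription, so messenger levels are only a part of their control. In the vessel wall this system is best known in macrophages that take up red cells.

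Of the 8 genes, 6 had at least 1 probe set annotated to that gene alone, 20 probe sets in all, and the brightest of each passed the filter on low signal. Ftl1 and Trf were measured only by probe sets shared with other genes (3 and 1, respectively) and get no value. All values below are log2(signal + 72) of the brightest probe set, where 72 is the 20th percentile of all signals, and a difference of 1 is a doubling. Levels of different probe sets are not comparable with each other. A gene was called changed at an adjusted p under 0.05 (limma, Benjamini-Hochberg over all 11081 genes tested). The choice was taken to rest on rosiglitazone against control chow, so those differences are given as a description with no test.

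The arrays had the same trimmed mean signal of 1500, and replicate arrays correlated at 0.964 to 0.982. All 7 smooth muscle, 6 endothelial and 5 fibroblast markers looked at were above the filter, as were all 6 brown adipocyte and 5 of 6 measured adipocyte markers. Wild-type littermate arrays B and C stood apart. Array B had a summed signal of 11062 for the 3 red blood cell markers measured (of 8 listed), against 1043 to 3238 on the other 19 arrays. That sum is in effect 1 gene, the red cell anion exchanger Slc4a1 (10281.9 on array B), the only one above the filter. Epb42 (771 on array B) was also high there and Hba-a1, a haemoglobin chain, was not (9.3), both below the filter. The 8 hepatocyte markers measured (of 9, with 3 above the filter, among them Alb) summed to 10671 on array B and 7169 on array C, against at most 3523 on any array outside the littermate group and 3118 on littermate array A. Results that rest on these arrays are given with and without them.

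Slc40a1 was low on the control chow arrays and higher on every other array of the study, treated or not. The chow values were 9.12, 8.78 and 8.48. With rosiglitazone at 3 mg the values were 9.71, 9.45 and 10.17 after 2 days and 9.41, 10.27 and 9.56 after 14 days. At 10 mg they were 9.63, 9.73 and 9.49 after 2 days and 9.83 and 9.82 after 14 days. The untreated wild-type littermates lay in the same range, at 9.73, 10.10 and 9.71. So did the P465L mice, at 10.11, 9.76 and 9.79. No array outside the chow group overlapped it. Of the 11081 genes tested, 19 (0.171%) had all 17 other arrays above all 3 chow arrays, a count from which nothing is read, since the contrast with chow chose the gene.

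**Figure D1:**
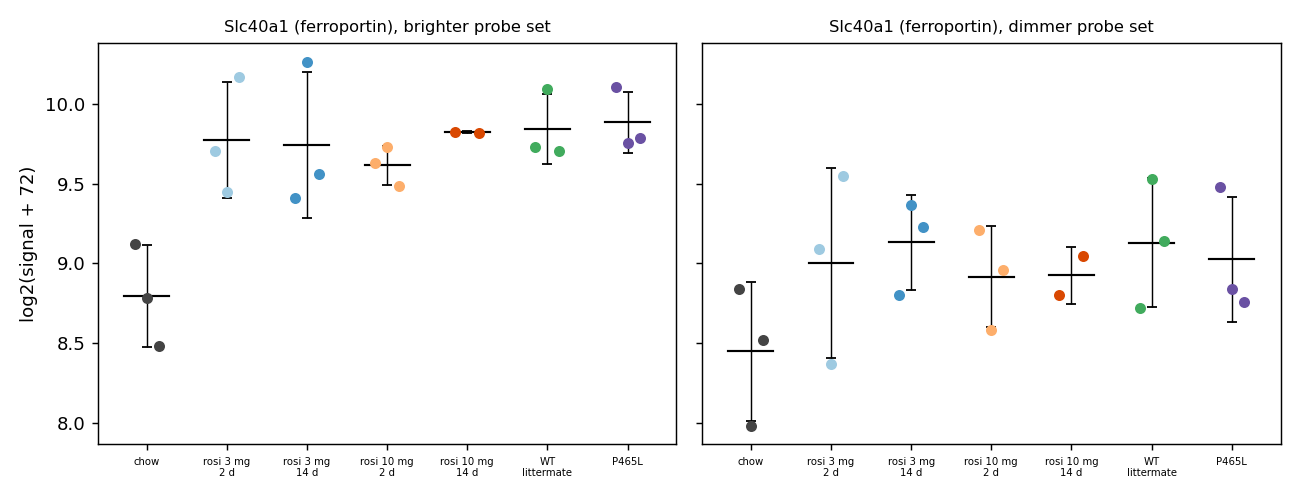
Slc40a1, log2(signal + 72), in 7 groups for its 2 probe sets; each point is an array of 8 pooled aortas, lines are group means and bars are SD (n = 3, or 2 for 10 mg at 14 days). On the brighter probe set the 3 chow arrays (8.48 to 9.12) lie below all 17 others (9.41 to 10.27); on the dimmer one chow (7.98 to 8.84) overlaps the other groups.

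Averaged over the 4 groups, Slc40a1 stood 0.94 above chow on rosiglitazone (SE 0.18), a ratio of 1.92. By group the difference was 0.98 at 3 mg and 2 days, 0.95 at 3 mg and 14 days, 0.82 at 10 mg and 2 days and 1.03 at 10 mg and 14 days. Wild-type littermates, which received no drug, differed from chow by 1.05 (SE 0.23), a ratio of 2.07. Both figures use the same 3 chow arrays, so they are not independent of each other and neither is given a p. Against the wild-type littermates in place of chow, a comparison added after the values were seen, the rosiglitazone average was -0.11 (SE 0.18, 95% interval -0.48 to 0.27). Without wild-type littermate array B that value was 0.02. The treated arrays thus overlapped the untreated littermates and not the chow group. Cohort and treatment cannot be told apart in the comparison with the littermates.

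The order of the Slc40a1 group means, from low to high, was chow at 8.80 (SD 0.32), 10 mg for 2 days at 9.62 (SD 0.12), 3 mg for 14 days at 9.75 (SD 0.46), 3 mg for 2 days at 9.77 (SD 0.36), 10 mg for 14 days at 9.82, wild-type littermates at 9.85 (SD 0.22) and P465L at 9.88 (SD 0.19). The pooled SD within groups was 0.29. Each step above the chow group was smaller than that. The rule by which the genes were chosen does not name its contrast, which was taken to be rosiglitazone against chow. On that basis the dose, the duration and the P465L allele were tested. P465L minus wild type was 0.04 (SE 0.23, adjusted p = 0.98, 95% interval -0.43 to 0.51), and 0.16 without littermate array B and -0.03 without array C. Between 10 and 3 mg the difference was -0.04 (adjusted p = 0.94, interval -0.39 to 0.32), and between 14 and 2 days it was 0.09 (adjusted p = 0.999, interval -0.27 to 0.44). None of these differences exceeded the spread between arrays, and the intervals leave room for changes in either direction.

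The second Slc40a1 probe set was dimmer and gave smaller differences. Its chow values were 8.84, 7.98 and 8.52, and the lowest of the rosiglitazone arrays was 8.37. The rosiglitazone average stood 0.55 above chow and the wild-type littermates 0.68 above it on that probe set. The groups overlapped there, whereas they did not on the brighter one.

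Summed markers of fat moved with Slc40a1. The summed signal of the 6 brown adipocyte markers, Ucp1 and Cidea among them, was 36538 to 78912 on chow, 83787 to 209882 with rosiglitazone and 89158 to 183030 in wild-type littermates. For the 6 adipocyte markers measured (of 8) it was 56867 to 96924, 86524 to 174320 and 96887 to 152902. Adipoq and Lpl gave the largest signals in that sum, with means of 27905 and 25201 on chow and 49464 and 46003 in littermates. Only Plin4 was lower in littermates than on chow (18934 against 20821). The Retn mean on chow (3521) lay above its median over all arrays (3274). Across the 20 arrays Slc40a1 correlated with the log of the brown adipocyte sum at Pearson r = 0.65 (Spearman rho 0.62), 0.71 within groups, 0.44 without the chow arrays and 0.68 without the 2 arrays farthest from the median sum. With the adipocyte sum r was 0.71 (rho 0.65), 0.64 within groups, 0.55 without the chow arrays and 0.62 without the 2 farthest arrays. These correlations are over arrays that share groups and are descriptions. The P465L arrays went a different way: B and C had brown adipocyte sums of 62142 and 37139, inside the chow range, with Slc40a1 at 9.76 and 9.79, above every chow array. The part of fat tissue in the Slc40a1 difference was not tested. The 11 macrophage markers, all above the filter, summed to 69668 to 85535 on chow, 61865 to 81743 with rosiglitazone and 65121 to 72912 in wild-type littermates. That sum was not higher where Slc40a1 was. Singly, the means of Csf1r, Mrc1 and Cd14 were higher in littermates (17415, 5500 and 1815) than on chow (15891, 4516 and 1758), and the other markers were lower. The part of macrophages was not tested. The summed signal of the 6 endothelial markers went the other way, at 30086 to 37640 on chow and 21834 to 30064 with rosiglitazone, without overlap. Such a lack of overlap was seen in 2.07% of single genes tested, in one direction or the other. In wild-type littermates the sum was 27418 to 34693. Pecam1 and Vwf gave the largest signals (medians 12888 and 8754). Kdr and Cdh5 did not follow the sum: their chow means (380 and 1140) lay below their medians over the 20 arrays (489 and 1301). The r of the endothelial sum with Slc40a1 was -0.44 (rho -0.51), -0.11 within groups, -0.09 without the chow arrays and -0.53 without the 2 farthest arrays. The part of endothelial cells was not tested either.

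**Figure D2:**
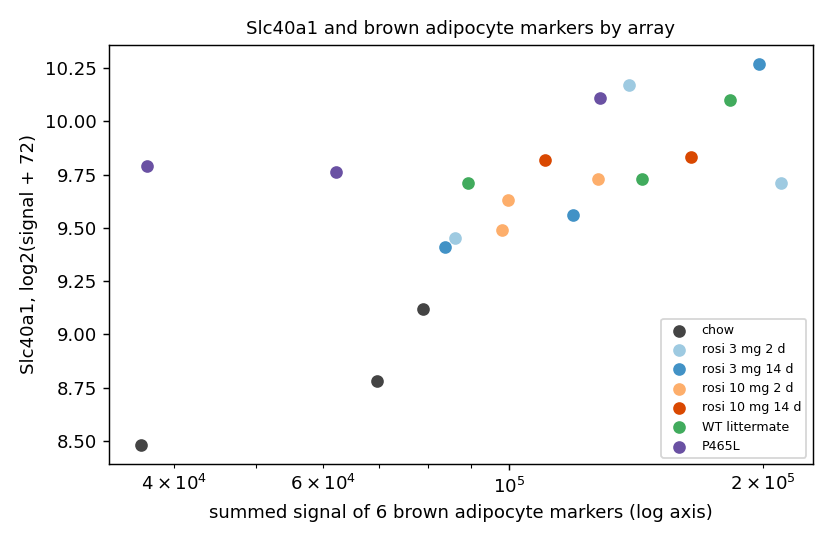
Slc40a1, log2(signal + 72), against the summed signal of 6 brown adipocyte markers on a log axis, 1 point per array and 1 colour per group. Most arrays rise together, with the 3 chow arrays at the lower left; P465L arrays B and C (sums of 62142 and 37139) have chow-like sums with Slc40a1 at 9.76 and 9.79.

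The 5 tested genes most like Slc40a1 over the 20 arrays were Angptl4 (r = 0.91, rho 0.82), C730049O14Rik (r = 0.85), Slc4a4 (r = 0.83), Cyyr1 (r = 0.82) and Slc1a3 (r = 0.82). Angptl4 encodes an inhibitor of lipoprotein lipase and is a well-known PPAR target. Its mean was 10.85 on chow (SD 0.40, n = 3), 12.11 with rosiglitazone (SD 0.51, n = 11), 12.14 in wild-type littermates (SD 0.18, n = 3) and 11.94 in P465L mice (SD 0.26, n = 3). Like Slc40a1, it was thus low on chow and high in both untreated groups of the second experiment. Angptl4 was picked by its r with Slc40a1 over the same 20 arrays, so nothing is read from the shared pattern. Its r with Slc40a1 was 0.84 within groups, 0.76 without the chow arrays and 0.81 without the 2 arrays farthest from the median. Slc1a3 fell to 0.59 without those 2 arrays, both of them chow.

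Ceruloplasmin (Cp), the ferroxidase that oxidizes exported iron, was highest in the second experiment. Its values were 12.69, 12.46 and 11.73 on chow. In wild-type littermates they were 12.59, 13.17 and 13.17, and in P465L mice 12.80, 12.91 and 12.62. The 11 rosiglitazone arrays ran from 11.67 to 12.92 with a median of 12.12. Wild-type littermates stood 0.68 above chow (SE 0.29, adjusted p = 0.16), with 1 wild-type array inside the chow range. Cp is also a plasma protein made by the liver. Littermate arrays B and C, with Cp at 13.17, had hepatocyte marker sums of 10671 and 7169, and array A, at 12.59, had 3118. Within chow the order was reversed: array A had the highest Cp (12.69) and the lowest sum (1440). Array B (12.46) had 3081, and array C, with the lowest Cp (11.73), had 3523. In P465L mice, with Cp from 12.62 to 12.91, the sum was 637 to 1724, below most of the chow arrays. The part of liver RNA in the difference was not tested. The difference was 0.58 without littermate array B (adjusted p = 0.38) and 0.59 without array C (adjusted p = 0.31). All 8 Cp probe sets gave a positive difference in this comparison, from 0.12 to 0.98 with a median of 0.39. Cp thus did not pass the test, although its 95% interval of 0.09 to 1.28 lay above 0. P465L minus wild type was -0.20 (adjusted p = 0.88), positive in 4 of 8 probe sets. The rosiglitazone average minus chow was -0.07 (SE 0.23). Neither dose (0.22, adjusted p = 0.69) nor duration (-0.10, adjusted p = 0.999) gave a difference beyond the error.

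Tfrc, the transferrin receptor, was among the steadiest of the 6, from 10.65 to 11.41 over the 20 arrays. Chow gave 10.70, 11.03 and 11.09, wild-type littermates 11.17, 11.41 and 10.93, and P465L mice 11.29, 10.90 and 10.88. All 3 groups overlapped. The wild-type littermates differed from chow by 0.23 (SE 0.15, adjusted p = 0.41) and P465L from wild type by -0.15 (SE 0.15, adjusted p = 0.83). Without littermate array B these were 0.11 and -0.03, and without array C 0.35 and -0.27, none of them called. Rosiglitazone arrays had a median of 10.94 and their average differed from chow by -0.02 (SE 0.12). The 10 mg groups were 0.10 from the 3 mg groups (adjusted p = 0.74) and the later time 0.005 from the earlier one (adjusted p = 0.999). The other 2 Tfrc probe sets were below the filter and disagreed in sign with each other for P465L (-0.28 and 0.34), dose and duration.

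Slc11a2, the divalent metal transporter, was lowest in the P465L mice, at 10.07, 9.86 and 9.97. The wild-type littermates gave 10.30, 10.49 and 9.79, so array C of that group lay below all P465L arrays. Chow values were 10.22, 10.34 and 10.53. P465L minus wild type was -0.23 (SE 0.17, adjusted p = 0.76), and -0.08 without littermate array B and -0.43 without array C (adjusted p = 0.31). Of the 4 probe sets, 3 were lower in P465L and 1, below the filter, was higher. Wild-type littermates minus chow was -0.17 (SE 0.17, adjusted p = 0.61), and without littermate array C it was 0.03. Rosiglitazone arrays ran from 10.08 to 10.66, with the average 0.02 from chow (SE 0.14). Dose (-0.03) and duration (-0.04) gave differences smaller than their error, with adjusted p = 0.94 and 0.999.

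**Figure D3:**
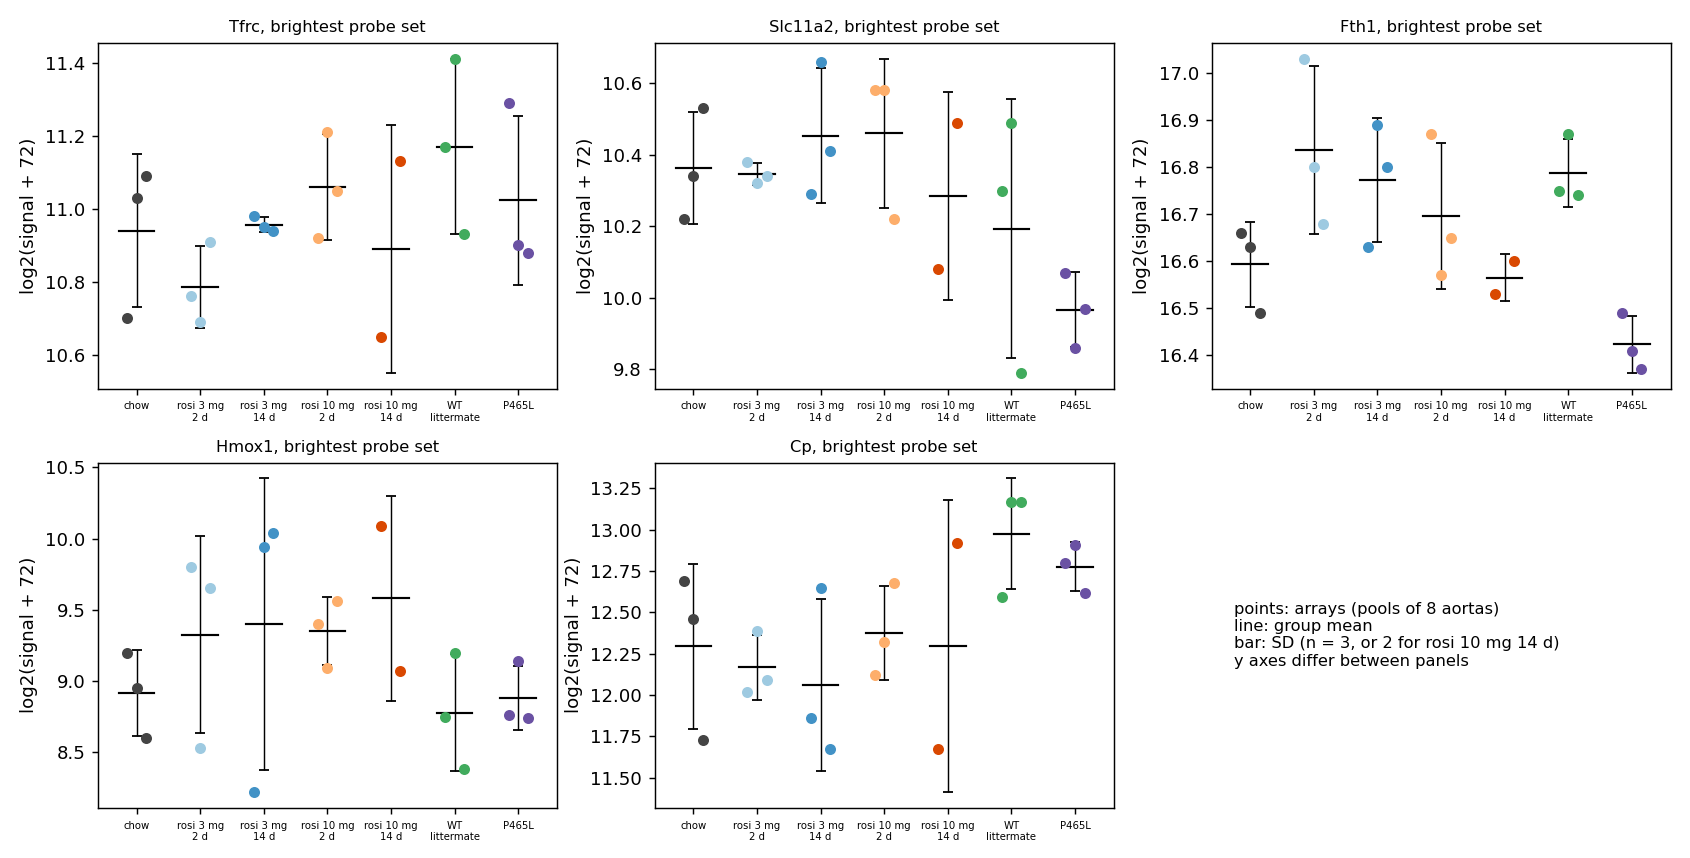
Tfrc, Slc11a2, Fth1, Hmox1 and Cp, log2(signal + 72) of the brightest probe set, by group; points are arrays, lines means, bars SD, and the y axes differ between panels. The 3 Fth1 values of P465L mice (16.37 to 16.49) lie below the wild-type littermates (16.74 to 16.87), whereas Hmox1 spreads from 8.22 to 10.09.

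Fth1, the ferritin heavy chain, was the gene whose P465L arrays were set off from their littermates. Its brightest probe set lay at the 99.97th percentile of all probe sets. P465L mice had 16.49, 16.41 and 16.37 and wild-type littermates 16.75, 16.87 and 16.74, with no overlap. The difference was -0.36 (SE 0.10, 95% interval -0.58 to -0.15), a ratio of 0.777. It did not pass the threshold over all genes, with an unadjusted p = 0.0021 and an adjusted p = 0.49. The other Fth1 probe set gave -0.33 with arrays that also did not overlap, at 16.37, 16.22 and 16.16 against 16.55, 16.64 and 16.54. Non-overlapping arrays were common in this comparison: 1590 of 11081 genes (14.3%) showed them in one direction or the other. Some marker sums moved the same way without overlap. The 7 smooth muscle markers gave 394559 to 436052 in P465L mice and 479210 to 491546 in littermates. The 5 fibroblast markers gave 165452 to 173320 and 176694 to 196999, and the hepatocyte markers 637 to 1724 and 3118 to 10671. The sums of the other marker lists overlapped between these groups. All sums are of the deposited signals, without quantile normalization, and their part was not tested. Without littermate array B the Fth1 difference was -0.32, and without array C -0.39. With quantile normalization it was -0.11 (adjusted p = 0.67). All 6 genes, Fth1 included, kept the sign of their P465L difference under that setting.

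The other Fth1 differences were smaller. Chow values were 16.66, 16.63 and 16.49. Those of the rosiglitazone arrays ran from 16.53 to 17.03, the highest on array A of 3 mg and 2 days. The average differed from chow by 0.13 (SE 0.08). Wild-type littermates stood 0.19 above chow (SE 0.10, adjusted p = 0.27) without overlap, as did 27.8% of all genes tested in one direction or the other, and the sign turned under quantile normalization (-0.04). The log2 difference of 10 minus 3 mg was -0.17 (SE 0.08, unadjusted p = 0.041, adjusted p = 0.38), with overlapping arrays. For duration the difference was -0.09 (adjusted p = 0.999).

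Hmox1, the inducible haem oxygenase, was the most variable of the 6, with a pooled SD within groups of 0.58. With rosiglitazone its values were 9.80, 8.53 and 9.65 at 3 mg and 2 days and 8.22, 9.94 and 10.04 at 3 mg and 14 days. At 10 mg they were 9.40, 9.09 and 9.56 after 2 days and 10.09 and 9.07 after 14 days. Chow gave 9.20, 8.95 and 8.60. Both the lowest and the highest values of the study thus came from treated arrays. The average stood 0.50 above chow with an SE of 0.32. Wild-type littermates (8.75, 9.20 and 8.38) and P465L mice (8.76, 9.14 and 8.74) were in the chow range or just below it. Their difference was 0.10 (SE 0.41, adjusted p = 0.96), and wild type minus chow was -0.14 (adjusted p = 0.88). Without littermate array C they were -0.09 and 0.06, and without array B 0.32 and -0.35, none of them called. Dose (0.10, adjusted p = 0.91) and duration (0.15, adjusted p = 0.999) had 95% intervals of -0.53 to 0.74 and -0.48 to 0.78, which leave changes of either sign possible.

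**Figure D4:**
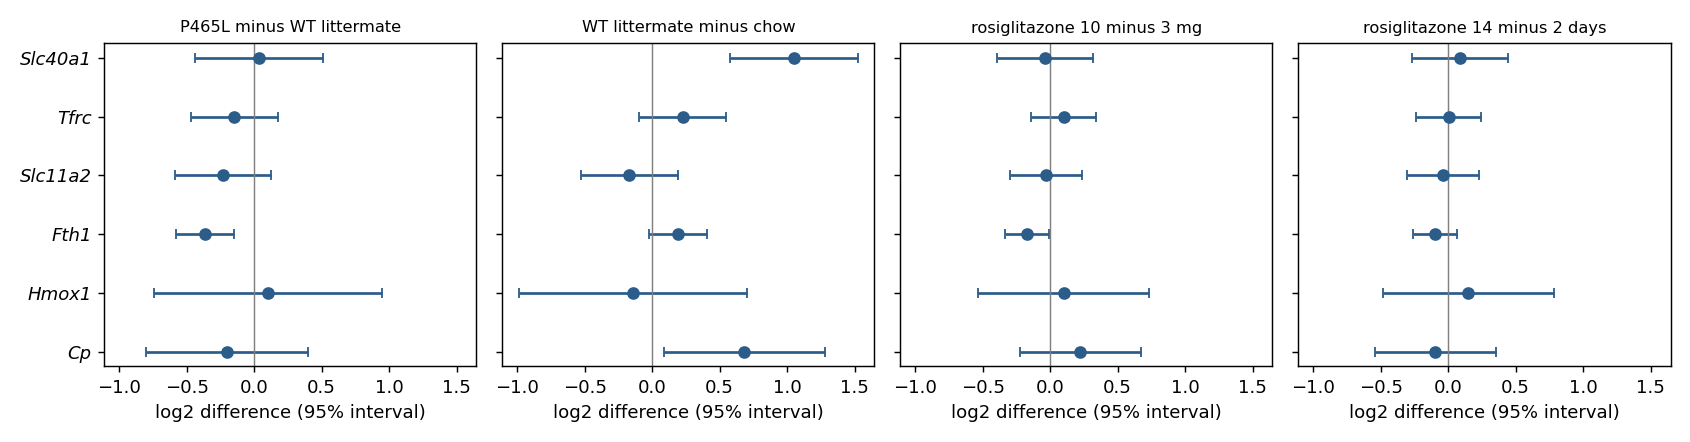
Log2 difference of the 6 genes in 4 comparisons, with 95% intervals from the limma fit over 20 arrays. Slc40a1 in wild-type littermates minus chow (1.05, shown as a description) is farthest from 0, and the Fth1 interval for P465L (-0.58 to -0.15) does not reach 0; adjusted over all genes, no member passed in the P465L, dose or duration comparison.

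In count, none of the 6 genes was called between P465L and wild-type littermates, where 2 of 11081 genes were (0.018%), or by dose or duration, where no gene was called (0% for both). At an unadjusted p under 0.05 the 6 genes gave 1 in the P465L comparison (Fth1), 1 for dose (Fth1) and 0 for duration, or 16.7%, 16.7% and 0%. Over all genes the counts were 823, 1405 and 464, or 7.43%, 12.7% and 4.19%. With 6 genes a single gene makes 16.7%, so nothing is read from these shares. Between wild-type littermates and chow 719 genes (6.49%) passed, and 279 (2.52%) without littermate array B. None of the 5 members other than Slc40a1 did, and no call is given for Slc40a1, since the same chow arrays chose it. For rosiglitazone against chow, nothing is read from the counts: over the 4 groups 48 genes (0.433%) passed, none of them among the 5 other members, and by group 0% at 3 mg after 2 days, 0% at 3 mg after 14 days, 0.505% at 10 mg after 2 days and 0.271% at 10 mg after 14 days. The median difference of the 6 genes was -0.17 for P465L, beside 0.01 over all genes. For wild type against chow it was 0.21, beside -0.04 over all genes. Nothing is read from that value, since Slc40a1, chosen through the chow arrays, is 1 of the 6. Among themselves the 6 genes had r from -0.32 (Slc11a2 and Cp) to 0.50 (Slc11a2 and Fth1) over the 20 arrays. Within groups r ran from -0.13 (Tfrc and Hmox1) to 0.68 (Tfrc and Slc11a2, 0.28 over the 20 arrays). It was 0.54 for Slc40a1 and Hmox1 and 0.07 for Slc11a2 and Cp.

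The wider iron pathway was followed in a list of 58 genes for iron uptake, export, storage, haem synthesis and breakdown, and their regulators, of which 54 were measured and 42 tested. None was called between P465L and wild-type littermates, with 20 higher and 22 lower and 4 at an unadjusted p under 0.05 (9.52%, against 7.43% of all genes). The smallest p values belonged to Blvrb, the biliverdin reductase B (-0.44, SE 0.16, adjusted p = 0.63), and Slc48a1, a haem transporter (-0.30, SE 0.12, adjusted p = 0.65). Between wild-type littermates and chow 2 were called higher and 0 lower, or 4.76% beside 6.49% of all genes, with 9 at an unadjusted p under 0.05 (21.4% beside 22.5%), so the list was called no more often than genes at large. These were Alad (0.77, SE 0.18, adjusted p = 0.016) and Fech (1.10, SE 0.30, adjusted p = 0.033), the enzymes of an early and of the last step of haem synthesis. Alad was 11.75, 11.54 and 11.35 in wild-type littermates and 10.94, 10.66 and 10.73 on chow, without overlap. Fech rested on the array with the high red cell markers: its littermate values were 14.43, 16.32 and 14.87, and without array B its difference was 0.54 (adjusted p = 0.16). Alad then kept its size (0.77) with an adjusted p of 0.055. Neither gene passed without chow array B or C, and with the mean of all probe sets Alad was 0.63 (adjusted p = 0.11) and Fech 0.62 (adjusted p = 0.17).

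Dose gave no call in the list, with 10 genes at an unadjusted p under 0.05 (23.8%, against 12.7% of all genes). The smallest p values were those of Slc48a1, at -0.31 for 10 minus 3 mg (SE 0.09, adjusted p = 0.25), and of Hp, the haemoglobin scavenger haptoglobin, at -0.81 (SE 0.25, adjusted p = 0.25). Hp was 12.03, 11.84 and 12.03 at 10 mg and 2 days but 13.99, 12.39 and 12.92 at 3 mg and 2 days. After 14 days the doses overlapped, at 12.19 and 11.90 with 10 mg and 12.10, 12.73 and 12.76 with 3 mg. Against chow, described only, the highest averages over the rosiglitazone groups were Steap4, a ferrireductase (0.35, SE 0.11), Aco1, the iron regulatory protein and aconitase (0.31, SE 0.09), and Tfr2, the second transferrin receptor (0.27, SE 0.23). The lowest were Hp (-0.62, SE 0.27), Slc25a37, the mitochondrial iron importer mitoferrin (-0.55, SE 0.32), and Alas2 (-0.32, SE 0.20). None was called, and 6 of 42 had an unadjusted p under 0.05 (14.3%, against 14.2% of all genes). Aco1 was 13.82, 13.93 and 13.97 on chow and the rosiglitazone arrays began at 14.03, a lack of overlap seen in 229 of all genes tested (2.07%) in one direction or the other.

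By duration none of the list was called either, with 6 genes at an unadjusted p under 0.05 (14.3%, against 4.19% of all genes), and the smallest p values belonged to genes of haem synthesis in red cell precursors. Alas2, which encodes the erythroid enzyme of the first step, was 15.30, 15.47 and 15.45 after 2 days of 3 mg and 14.96, 14.57 and 14.26 after 14 days. At 10 mg it was 15.23, 14.92 and 14.66 after 2 days and 14.27 and 13.99 after 14 days. Within each dose the days did not overlap for Alas2, whereas Slc25a37 overlapped at 3 mg (13.10 on 2-day array A, 13.23 on 14-day array A). The share of all genes without overlap between days was not counted, so nothing is read from this. For Alas2 the difference between days was -0.81 (SE 0.18, adjusted p = 0.95), and for Slc25a37 it was -1.11 (SE 0.30, adjusted p = 0.999). Fech followed with -0.74 (SE 0.23). No gene passed in that fit. With the spread estimated without wild-type littermate array B, 9 genes of 11081 (0.0812%) passed and 3 were Alas2 (adjusted p = 0.027), Slc25a37 (adjusted p = 0.027) and Fech (adjusted p = 0.038), with unaltered differences. With only the chow and rosiglitazone arrays in the fit, 5 genes (0.0451%) passed, Alas2 and Slc25a37 among them (both adjusted p = 0.040). The red blood cell marker sum, in effect Slc4a1, moved with these genes: it was 2221 to 3238 at 2 days and 1043 to 1708 at 14 days of 3 mg, and 1605 to 2036 and 1210 to 1239 at 10 mg. Epb42 and Hba-a1, both below the filter, did not follow it throughout. Epb42 fell at 3 mg (98.7 to 126.7, then 40.9 to 70.2), but at 10 mg it went from 55 to 109.8 at 2 days to 29 and 204.8. Hba-a1 was 44.1 to 57.2 and 35 to 282.5 at 3 mg. At 10 mg Hba-a1 was 49.9 to 167 at 2 days and 162.9 and 273.9 at 14 days. The part of red cell RNA in the difference was not tested. None of the 6 members passed by duration in any of these fits.

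**Figure D5:**
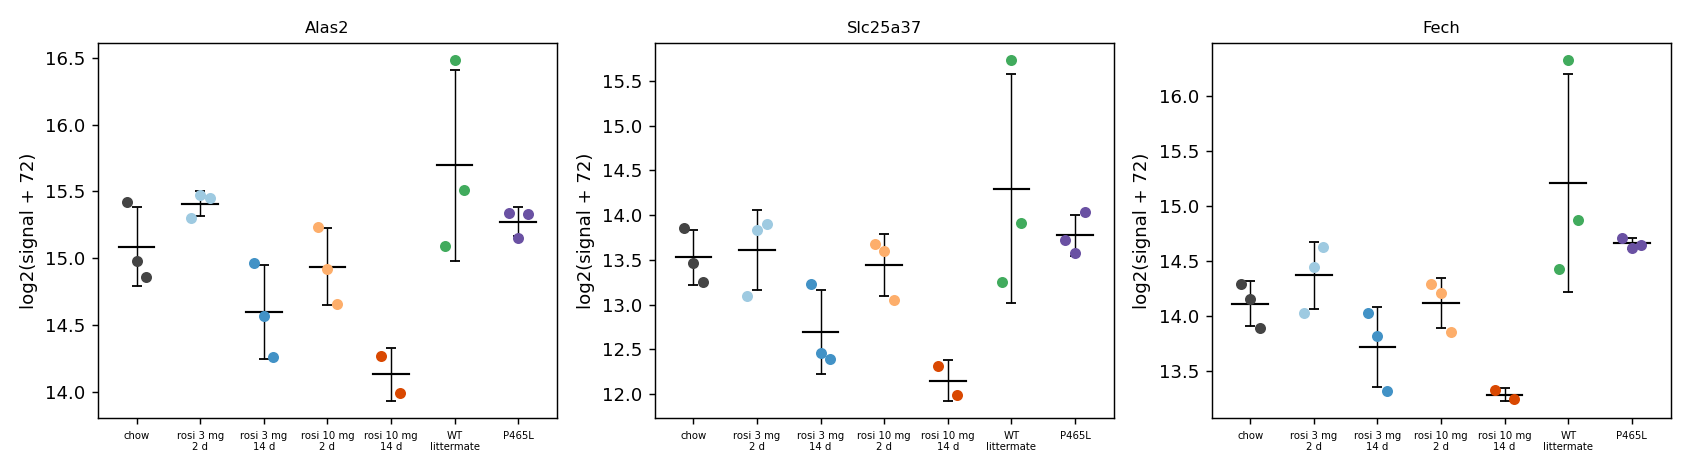
Alas2, Slc25a37 and Fech, log2(signal + 72), by group; points are arrays, lines means and bars SD. Group means are lower after 14 than after 2 days of rosiglitazone at each dose (Alas2 arrays: 13.99 to 14.96 against 14.66 to 15.47). At 3 mg Slc25a37 overlaps between days (13.10 on 2-day array A, 13.23 on 14-day array A), and Fech is 14.03 on array A of both. Among all arrays, wild-type littermate array B stands highest (16.48 for Alas2).

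Genes of the regulators that are known to act on Hmox1 and ferritin were looked at as well. Of 12 NRF2 and BACH1 genes, 9 were tested and none was called in the P465L, littermate, dose or duration comparisons. At an unadjusted p under 0.05 there were 2, 2, 1 and 1 (22.2%, 22.2%, 11.1% and 11.1%). Over all genes the shares were 7.43%, 22.5%, 12.7% and 4.19%. The smallest p values were for Keap1 (-0.34, adjusted p = 0.62) and Mafg (0.47, adjusted p = 0.63) with P465L, for Nfe2l2 (-0.23, adjusted p = 0.17) and Srxn1 (-0.27, adjusted p = 0.22) between wild-type littermates and chow, and for Gclm by dose and by duration (-0.30 for each, adjusted p = 0.34 and 0.999), followed by Nfe2l2 for dose (0.15, adjusted p = 0.41) and Keap1 for duration (-0.16, adjusted p = 0.999). Keap1 encodes the sensor that holds NRF2 (Nfe2l2) in check, and Gclm a subunit of the enzyme that starts glutathione synthesis. Of 13 hypoxia genes, 12 were tested and 1 was called, between wild-type littermates and chow (8.33%, beside 6.49% of all genes). Arnt, the partner of the hypoxia-inducible factors, was lower in wild-type littermates than on chow by a log2 difference of -0.69 (SE 0.21, adjusted p = 0.0495). Its littermate values were 11.74, 10.57 and 11.61 and its chow values 11.74, 12.23 and 12.02. The low value was again array B, without which the difference was -0.32 (adjusted p = 0.26), and with the mean of all probe sets it was -0.12. No hypoxia gene was called with P465L, where Adm (0.31, adjusted p = 0.68) and Arnt (0.31, adjusted p = 0.73) had the smallest p values, by dose (Arnt 0.36, adjusted p = 0.36, and Hif1a 0.16, adjusted p = 0.50) or by duration (Arnt 0.22 and Pdk1 -0.16, both adjusted p = 0.999). At an unadjusted p under 0.05 these 3 comparisons gave 0, 1 and 0 genes (0%, 8.33% and 0%, against 7.43%, 12.7% and 4.19% of all genes). Littermates against chow gave 3 (25%, against 22.5% of all genes). Against chow, as a description, the rosiglitazone averages ran from -0.27 for Gclm, -0.16 for Srxn1 and -0.11 for Nqo1 to -0.02 for Gclc, 0.03 for Keap1 and 0.12 for Mafg in the NRF2 and BACH1 list. In the hypoxia list they ran from -0.16 for Epas1, -0.13 for Ndrg1 and -0.10 for Arnt to 0.26 for Bnip3, 0.27 for Ankrd37 and 0.32 for Vegfa.

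Promoter windows from 250 bases before to 50 bases after the start were available from RefSeq for 4 of the 8 genes (Cp, Ftl1, Tfrc and Fth1, 7 windows), and not for Slc40a1, whose window was not analysed here. On both strands none of the 7 held the antioxidant response element TGANNNNGC, present in 41.3% of the 32851 windows of the table, or the PPAR recognition hexamer AGGTCA, present in 16.3%. Copies of that hexamer 1 base apart, which contain it, were present in 0.0396% of all windows. Nor did the 50 transcribed bases hold the CAGTG loop of the iron-responsive element on the coding strand (7.20% of all windows). The absence of these letters says nothing about the factors, and no promoter is printed, since none bears on a difference reported above.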

How the data were processed

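The deposited values are MAS5 signal intensity on a linear scale, 1 per probe set and array, per the submitters' processing notes; the authors' scaling is seen in a trimmed mean (2% at each end) of 1500 on every array. Of 45101 probe sets, 64 controls were left out, and 34945 had 1 gene symbol, 932 several and 9160 none in GEO's platform annotation. Per gene the brightest probe set was used, as log2(signal + 72), if its mean reached the 50th percentile of all probe sets (a signal of 352). limma 3.58.1 (R 4.3.3) fitted a mean per group over 20 arrays with a variance trend (13 residual degrees of freedom), checked on simulated data. P-values are two-sided and adjusted over 11081 genes.

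The members and lists were chosen with earlier results of these data known. Named are all members, every list gene called in a tested comparison or, with none, the 2 of smallest p, the 3 highest and 3 lowest against chow, and the 5 genes most like Slc40a1. Fech by duration and Abcb10 were named after their values were seen. Replicates are pools of separate mice, per the labels. Same-lettered arrays did not deviate together (57 pairs, median r 0.025, from -0.30 to 0.36), so the letters were not taken as pairs. No batch is given in the sources used here. The precision is limited by 2 or 3 arrays a group. Alternatives were the offset, filter, probe set rule, quantile normalization, variance model, array weights, arrays in the fit, a replicate block and leaving out each array.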

Additional observations from a re-analysis of the deposited data

How the results depend on the processing

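None of 24 values of a member in the P465L, littermate, dose and duration comparisons became newly called under any of 30 alternatives. The Slc40a1 difference of wild-type littermates from chow ranged from 0.84 with the offset at the 40th percentile to 1.21 without chow array A. Calls of Slc40a1 against chow are not counted, since the same chow arrays chose it. Iron pathway genes called between wild-type littermates and chow went from 2 to 1 with no filter (Alad) and to 1 with the mean of probe sets (Abcb10), and ranged from 0 to 3 when 1 array was left out. By duration 2 were called with only the arrays of that experiment, and from 0 to 3 when 1 array was left out.

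Signs changed in at least 1 alternative for 16 of these 24 values, none of them called. With the mean of all probe sets these were Slc40a1 for P465L (-0.032), Slc11a2 for dose (0.086) and duration (0.040) and Cp for P465L (0.014). With array weights these were Slc40a1 for P465L (-0.00202) and dose (0.031), and with quantile normalization Tfrc for duration (-0.012) and Fth1 for littermates against chow (-0.035). The replicate block turned Tfrc for duration (-0.000451) and altered no call of a member. When 1 array was left out, Slc40a1 ranged from -0.073 to 0.16 for P465L, from -0.12 to 0.092 for dose and from -0.042 to 0.19 for duration. Tfrc ranged from -0.018 to 0.22 for dose and from -0.12 to 0.13 for duration, and Slc11a2 from -0.32 to 0.035 for littermates against chow, from -0.13 to 0.075 for dose and from -0.14 to 0.068 for duration. Hmox1 ranged from -0.094 to 0.32 for P465L, from -0.35 to 0.058 for littermates against chow, from -0.19 to 0.36 for dose and from -0.11 to 0.44 for duration, and Cp from -0.091 to 0.54 for dose and from -0.41 to 0.22 for duration. The cause of these changes was not tested. Over all genes, the count called ranged from 279 to 1036 for littermates against chow and from 1 to 260 for rosiglitazone against chow.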
